A study of Mus musculus with 6 samples.

Results

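The genes described here encode the laminin network of the basement membrane and the proteins that tie it to the collagen network. They are 9 in all: the laminin alpha chains Lama1, Lama3, Lama4 and Lama5, the beta chains Lamb1 and Lamb2, the gamma chain Lamc1, nidogen 1 (Nid1) and perlecan (Hspg2). A gene was taken where a transcript cluster of the array, its unit for a transcribed locus, carried that gene's symbol and no other. Each of the 9 had 1 such cluster, and all 9 passed the filter on low values, among 22087 genes tested. Kidney RNA was measured on 6 single-colour arrays from female Pkd1 miR transgenic mice, killed on postnatal day 63. One group of 3 mice received saline and the other group of 3 received metformin, a biguanide used against diabetes, by daily intraperitoneal injection of 150 mg/kg, from day 35 until day 63. All 6 animals carry the transgene, so the comparison is one of drug against saline within a model of polycystic kidney disease, and it holds no kidney without the transgene. What drives the transgene is not given in the sources read here.

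Basement membranes are thin sheets of matrix under epithelia and around vessels, muscle and fat cells. Each laminin is a trimer of an alpha, a beta and a gamma chain, and the trimers join into a sheet that binds integrins and dystroglycan on the cell through the alpha chain. Nidogen bridges the gamma 1 chain to collagen IV, and perlecan, a large proteoglycan that carries heparan sulphate, adds a further link. In the kidney the alpha 5 chain is the main alpha chain of mature tubules and of the glomerulus, where it pairs with beta 2 and gamma 1. The alpha 1 chain is known from early nephron stages and from proximal tubule and mesangial matrix, the alpha 4 chain from vessels, and the alpha 3 chain from epithelia such as urothelium. Loss of Lama5 function has been linked to cystic kidneys in mice.

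The stretches just upstream of annotated transcription starts are shown for the chains that rose and have an entry in the RefSeq table of promoters (GRCm38.p6), and for Lamb2, the other beta chain, which did not pass the test. Promoters are reported for 5 of the 9 genes: Lama5, Lamb1, Lamb2, Nid1 and Hspg2. Lama1, Lama3, Lama4 and Lamc1 were left out of the motif counts below. Printed are the bases before the first annotated base of the gene, at chr2:180225905-180226109 on the minus strand for Lama5, chr12:31265043-31265145 on the plus strand for Lamb1 and chr9:108479612-108479846 on the plus strand for Lamb2. Capitals mark GGGCGG, the GC box bound by SP1-type factors, on either strand (CCGCCC where it lies on the other).
Lama5: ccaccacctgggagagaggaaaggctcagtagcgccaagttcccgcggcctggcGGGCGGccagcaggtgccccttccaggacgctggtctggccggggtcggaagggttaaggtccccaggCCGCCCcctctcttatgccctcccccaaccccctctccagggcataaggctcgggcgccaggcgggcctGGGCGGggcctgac
Lamb1: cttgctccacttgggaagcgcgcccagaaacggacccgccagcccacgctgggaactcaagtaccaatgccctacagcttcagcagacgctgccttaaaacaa
Lamb2: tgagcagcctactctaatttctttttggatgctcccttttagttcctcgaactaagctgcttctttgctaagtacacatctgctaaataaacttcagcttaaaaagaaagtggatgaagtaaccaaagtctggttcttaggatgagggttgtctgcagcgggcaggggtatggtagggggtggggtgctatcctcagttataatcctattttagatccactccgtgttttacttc
The Lama5 stretch held 3 GC boxes, and the stretches of Lamb1 and Lamb2 held 0. In the full window of 300 bases around the start, Lama5 had 4 matches, Lamb1 had 2, Hspg2 had 5, Nid1 had 1 and Lamb2 had 0, and 35.7% of all 32851 promoter windows of that length held at least 1. The window of Lama5 had 24 CpG dinucleotides, that of Lamb1 18 and that of Lamb2 4, against a median of 7 over all windows. Hspg2, with 27, and Nid1, with 20, were not called and had more than Lamb1. Fewer CpG than in Lama5 were found in 80.0% of all windows, and fewer than in Lamb1 in 70.3%. The AP-1 motif TGANTCA, in 7.81% of all windows, and TATAAA, in 13.6%, were both searched on both strands and matched none of the 5 windows. A match is a run of letters and no evidence of binding.

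After metformin, 3 of the 9 genes rose and none fell. They were Lama5, Lamb1 and Lamc1, whose products can join into a single trimer of alpha 5, beta 1 and gamma 1. The same 3 genes were the members whose arrays did not overlap between the groups. Over all genes tested with limma, 15.8% were called at an adjusted p under 0.05, 6.71% higher and 9.08% lower, and the groups did not overlap in 17.8% with metformin higher and in 19.4% with metformin lower. A change above 0 was found for 52.9% of all genes, against 7 of these 9. An unadjusted limma p under 0.05 was found for 32.1% of all genes, against 3 of these 9. The median change of the 9 was 0.27 log2 units, beside 0.02 over all genes. In whole-kidney RNA, more cells of a type and more RNA per cell cannot be told apart.

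Lama5 showed the largest change of the 9. Its log2 values with saline were 8.36, 9.03 and 8.21, in the order of replicates 1 to 3 used throughout, and those with metformin were 9.92, 9.98 and 9.43. Every metformin array lay above every saline array, with a gap of 0.40 between the nearest ones. The mean went from 8.53 ± 0.44 to 9.78 ± 0.30 (SD, n = 3 per group), a rise of 1.25 ± 0.24 log2 units (SE), or 2.37-fold, with a limma adjusted p = 0.0181. The 95% interval of the change ran from 0.69 to 1.80.

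Lamc1, the gamma chain that most laminin trimers share, stood at 10.04, 10.45 and 9.90 on the saline arrays and at 10.91, 10.91 and 10.73 on the metformin arrays. The groups did not overlap, and the metformin arrays lay closer together than the saline arrays (SD 0.11 against 0.28). Lamc1 rose 1.64-fold, by 0.72 ± 0.15 log2 units (SE; limma adjusted p = 0.0230). Lamb1, the beta chain of embryonic and most tubular basement membranes, had 11.75, 12.12 and 11.78 with saline and 12.60, 12.64 and 12.31 with metformin. Here too the lowest metformin array was above the highest saline array, by 0.19. Lamb1 rose 1.56-fold, by 0.64 ± 0.14 (SE; limma adjusted p = 0.0268). Within saline, array 2 had the highest value of all 3 chains, and within metformin, array 3 had the lowest.

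The 3 calls rested on small groups. Leaving out saline replicate 1, or either of the first 2 metformin replicates, none of the 3 was called, with limma adjusted p of 0.0627 to 0.0768 for Lama5, 0.0753 to 0.0886 for Lamc1 and 0.0862 to 0.0990 for Lamb1. Without saline replicate 3 Lama5 was still called (0.0400) and Lamb1 (0.0663) and Lamc1 (0.0531) were not, and without saline replicate 2 or metformin replicate 3 all 3 were called. Their changes stayed above 0 in each of these fits, at 1.08 to 1.495 for Lama5, 0.60 to 0.88 for Lamc1 and 0.57 to 0.76 for Lamb1.

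**Figure D1:**
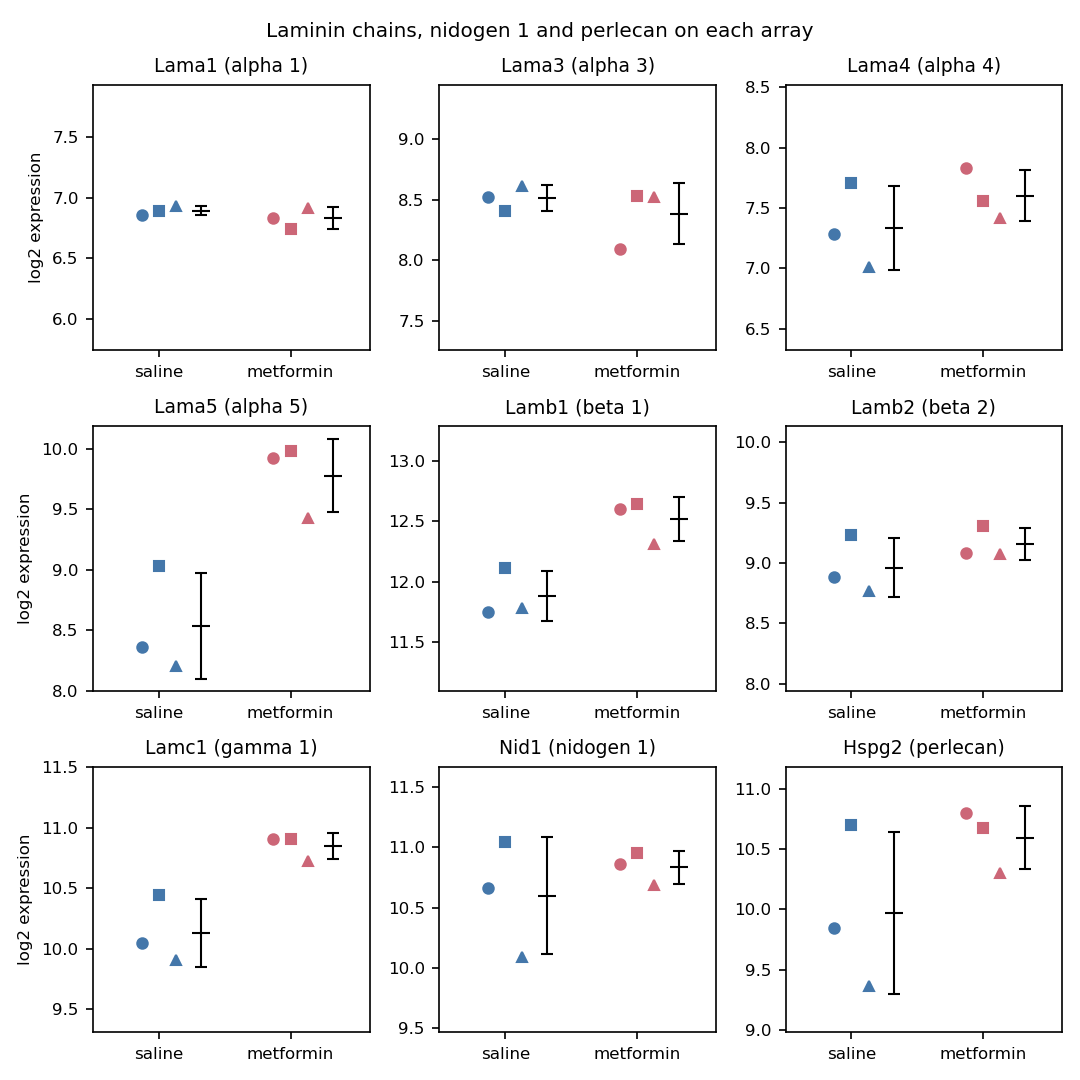
Log2 expression of the 9 genes on each array (vertical axis, a span of 2.2 log2 units in every panel), by treatment (horizontal axis). Circles, squares and triangles are replicates 1, 2 and 3, and the bar beside each group gives the mean and SD of 3 arrays. The metformin arrays of Lama5, Lamb1 and Lamc1 lie above all of the saline arrays, and the groups overlap in the other 6 genes.

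The other alpha chains gave no call. Lama4, the alpha chain of vessel, muscle and fat cell basement membranes, had 7.29, 7.70 and 7.01 with saline and 7.83, 7.55 and 7.42 with metformin, so saline array 2 lay within the metformin range. Its change was 0.27 ± 0.19 (SE; limma adjusted p = 0.379), with a 95% interval from -0.18 to 0.71. It was 0.45 without saline replicate 2 (adjusted p = 0.0951), 0.11 without saline replicate 3, 0.15 without metformin replicate 1, 0.18 with median-centring and 0.06 with quantile normalization. Lama1 kept the narrowest range of the 9 genes, at 6.86, 6.89 and 6.94 with saline and 6.84, 6.74 and 6.92 with metformin. Its change was -0.06 ± 0.09 (SE, limma adjusted p = 0.684). It was -0.15 with median-centring (adjusted p = 0.283) and -0.28 with quantile normalization (adjusted p = 0.0750). The 95% interval in the deposited values, from -0.28 to 0.15, leaves out a rise of the size seen for Lama5. Lama3 had 8.53, 8.40 and 8.62 with saline and 8.09, 8.53 and 8.53 with metformin. Its change of -0.13 ± 0.14 (SE; limma adjusted p = 0.571) rested on metformin array 1, and without that array it was 0.01.

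Lamb2, the beta chain of the mature glomerular basement membrane and of vessels, had 8.88, 9.24 and 8.77 with saline and 9.09, 9.31 and 9.08 with metformin. The groups overlapped, and the change was 0.19 ± 0.14 (SE; limma adjusted p = 0.396), with a 95% interval from -0.14 to 0.53. It was 0.33 without saline replicate 2 (adjusted p = 0.106), 0.10 without saline replicate 3, 0.12 without metformin replicate 2, 0.10 with median-centring and 0.07 with quantile normalization.

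The linkers of the network varied more among the saline mice than the chains did. Nid1 had 10.66, 11.05 and 10.09 with saline and 10.86, 10.95 and 10.68 with metformin, so the metformin arrays lay inside the saline range. Its change was 0.24 ± 0.23 (SE; limma adjusted p = 0.525), and without saline replicate 3 it was -0.02. Hspg2 had 9.85, 10.70 and 9.37 with saline and 10.80, 10.68 and 10.30 with metformin. Saline array 2 lay within the range of the metformin arrays, and the other saline arrays were lower than all of them. The change of Hspg2 was 0.62 ± 0.32 (SE; limma adjusted p = 0.223), close in size to that of Lamb1 but with a wider 95% interval, from -0.12 to 1.36. Without saline replicate 2 it was 0.98 (adjusted p = 0.0217), and without saline replicate 3 it was 0.32 (adjusted p = 0.480).

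Saline array 2 was the highest saline array for 7 of the 9 genes, whereas it was the highest for 33.6% of all genes. Metformin array 3 was the lowest metformin array for 7 of the 9, and for 38.8% of all genes. The mean deviation of the 9 genes from their own means was -0.27, 0.10 and -0.45 with saline and 0.25, 0.29 and 0.08 with metformin. Saline array 2 lay above metformin array 3 on this measure.

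**Figure D2:**
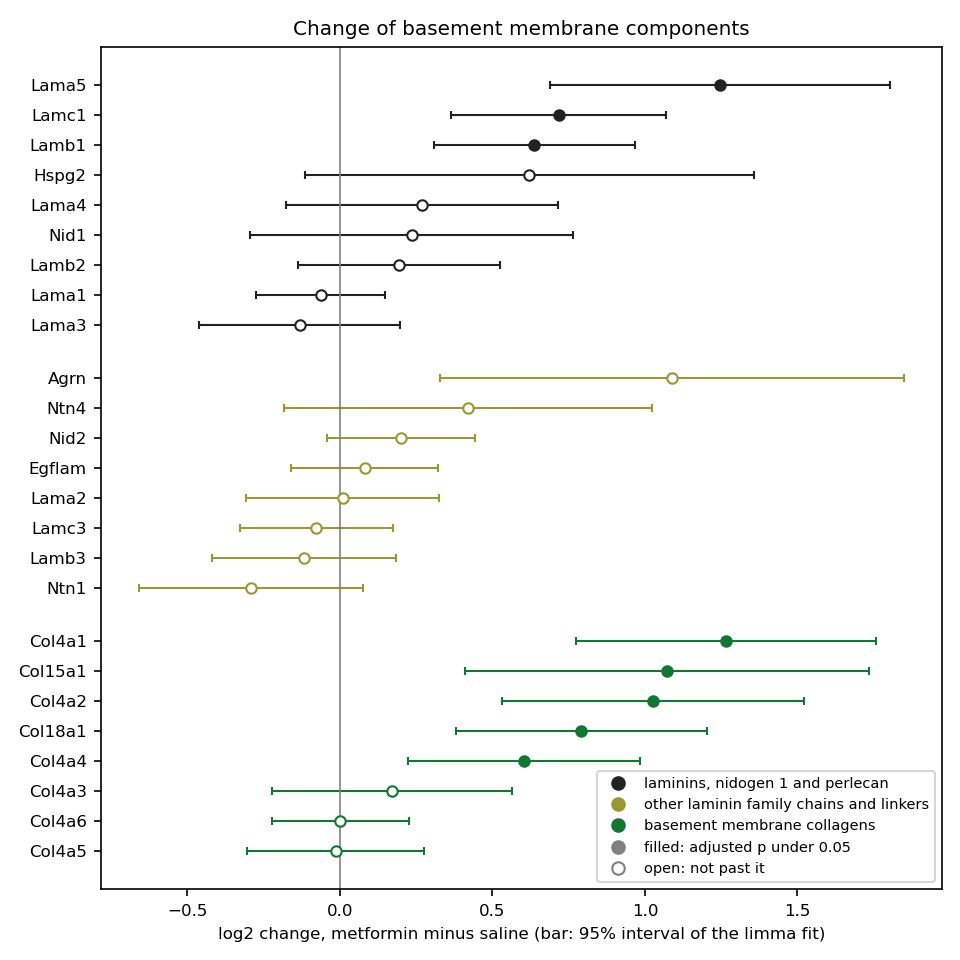
Log2 change, metformin minus saline (horizontal axis), with the 95% interval of the limma fit, for the laminins, nidogen 1 and perlecan (black), further laminin family chains and linkers (olive) and basement membrane collagens (green). Filled points passed an adjusted p under 0.05: Lama5, Lamc1 and Lamb1 among the 9, none of the further laminin family genes, and 5 collagen chains.

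Differences between genes on the same array, in which a shift of a whole array cancels, were compared for 5 pairs. Each pair holds Lama5, Lamb1 or Lamc1, which were called on their own, so the pairs are no separate evidence from those calls. Lama5 minus Lama4 was 1.07, 1.33 and 1.199 with saline and 2.09, 2.43 and 2.01 with metformin. The groups were apart, with means of 1.2 ± 0.13 and 2.18 ± 0.22 (SD, n = 3 per group). Lama5 minus Lama1 went from 1.64 ± 0.45 to 2.95 ± 0.38, also without overlap. Lamb2 minus Lamb1 was -2.86, -2.88 and -3.01 with saline and -3.52, -3.33 and -3.23 with metformin, so the beta 2 signal was lower relative to beta 1 on every metformin array. Nid1 minus Lamc1 was 0.62, 0.60 and 0.18 with saline and -0.05, 0.05 and -0.05 with metformin, again without overlap. Hspg2 minus Lamc1 overlapped, at -0.16 ± 0.40 with saline and -0.26 ± 0.16 with metformin. The two-sided exact permutation p was 0.1 for each of the first 4 pairs, the smallest that 3 arrays against 3 allow, and 0.8 for the last (0.125 and 0.8 after Benjamini-Hochberg adjustment over the 5 pairs). These tests could not reach 0.05, and the values say only how unequally the genes moved, since probes of different genes do not share a scale.

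**Figure D3:**
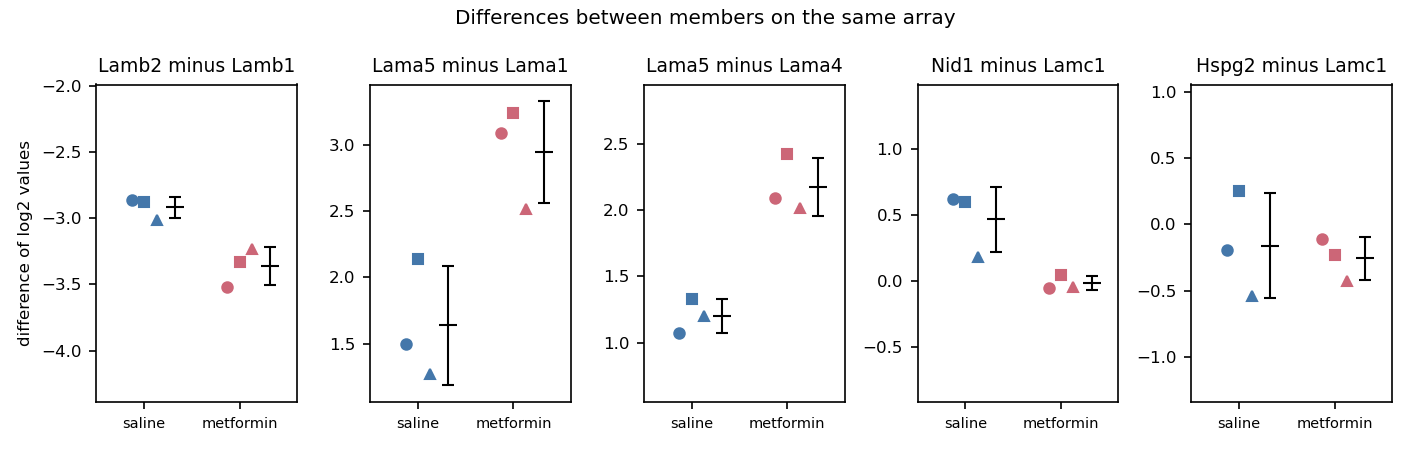
Difference of the log2 values of 2 genes on the same array (vertical axis, a span of 2.4 log2 units in every panel), by treatment. Symbols are replicates as in the plot of log2 expression by gene, and bars give the mean and SD of 3 arrays. The groups are apart in the first 4 pairs and overlap for Hspg2 minus Lamc1.

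Of 8 further measured laminin family chains and linkers none passed the threshold in the limma fit, and 1 had an unadjusted p under 0.05. Agrin (Agrn), a heparan sulphate proteoglycan of the glomerular basement membrane, had the largest change. It stood at 9.36, 10.42 and 9.29 with saline and at 11.09, 10.91 and 10.34 with metformin, so saline array 2 lay just above metformin array 3. Its change was 1.09 ± 0.33 (SE; limma adjusted p = 0.0611, or 0.0341 in the fit with a replicate block). The alpha 2 chain gene Lama2, known from muscle and mesangium, had a change of 0.01, Lamb3, a chain of hemidesmosomes, of -0.12, Lamc3 of -0.08 and nidogen 2 (Nid2) of 0.20, with limma adjusted p of 0.235 to 0.971. Nid2 was the one gene of this list whose groups did not overlap, at 7.46 to 7.74 with saline and 7.76 to 7.88 with metformin.

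Nidogen and perlecan link the laminin sheet to collagens. Of 8 basement membrane collagen genes 5 rose and none fell: the alpha 1 and alpha 2 chains of collagen IV, Col4a1 (1.27) and Col4a2 (1.03), then Col15a1 (1.07), Col18a1 (0.79) and Col4a4 (0.60). Col4a5 and Col4a6 had changes of -0.01 and 0.00. The count was 0 without saline replicate 1, 1 without metformin replicate 1 or 2, 2 without saline replicate 3 and 3 without metformin replicate 3.

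Of 13 measured genes on a list of laminin receptors and related surface proteins, none passed the threshold in the limma fit. Of these, 6 had an unadjusted p under 0.05, 8 had a change above 0, and the median was 0.21. Those with the smallest p were Itga8, the integrin alpha chain of mesangium and nephron induction that binds nephronectin (-0.40 ± 0.12, SE; limma adjusted p = 0.0567), and dystroglycan (Dag1; -0.34 ± 0.11; 0.0742). The metformin arrays of Itga8 lay at 7.98 to 8.12, below the saline arrays at 8.24 to 8.57. Dag1 likewise did not overlap, at 8.92 to 9.04 with metformin and 9.15 to 9.47 with saline. Of the 13 genes, 3 were lower without overlap and 1 was higher, beside 19.4% and 17.8% of all genes. The higher one was Itga7 (0.25 ± 0.10, SE; limma adjusted p = 0.124). Itgb4 had the largest change above 0 (0.54 ± 0.20, SE; limma adjusted p = 0.114), with overlapping groups. A replicate block gave 1 call on this list, the tetraspanin partner of laminin-binding integrins Cd151 (-0.39, adjusted p = 0.0324 with the block and 0.148 without it). Quantile normalization called 3 genes of this list and median-centring 2, all lower.

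Dystroglycan binds laminin through a sugar chain that starts with O-mannose. Of 5 measured genes that build it, 2 fell and none rose. They encode the paired O-mannosyltransferases: Pomt1, at 8.24, 8.13 and 8.17 with saline and 7.67, 7.68 and 7.62 with metformin, fell by 0.52 log2 units (limma adjusted p = 0.0126). Pomt2, at 8.50, 8.53 and 8.50 against 8.11, 8.15 and 8.06, fell by 0.40 (adjusted p = 0.0231). In both genes the spread within a group was small beside the step between the groups. The count was 0 without saline replicate 1, 1 without saline replicate 3 or any 1 of the metformin replicates, and 2 without saline replicate 2. Of 17 measured genes of heparan sulphate synthesis and editing, which build the chains that perlecan and agrin carry, 1 fell and none rose, with a median of -0.05. It was Extl2, a glycosyltransferase that acts on the linkage region, at 7.34 to 7.54 with saline and 6.85 to 6.95 with metformin (-0.56 ± 0.10, SE; limma adjusted p = 0.0134). It was not called without saline replicate 1, when the list had 0 calls. Quantile normalization called 4 genes of that list, all lower.

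Of 14 minor basement membrane proteins, Frem2 rose by 0.47 (limma adjusted p = 0.0440), a member of the Fraser complex that anchors epithelia, and the other 13 did not pass. That count was 0 without saline replicate 1 or any 1 of the metformin replicates and 6 without saline replicate 2. Without saline replicate 3, and with median-centring or quantile normalization, the list had 1 call, which was lower, and none higher. In the fit with a replicate block 7 of the 14 were called, 6 higher and 1 lower. They were Frem2 (adjusted p = 0.0464 with the block), its partner Frem1 (0.41; 0.0417), fibronectin Fn1 (1.22; 0.0422), the collagen binder Sparc (0.76; 0.0426), Smoc2 (0.52; 0.0342) and peroxidasin Pxdn, which crosslinks collagen IV (0.78; 0.0341), with Tinagl1 (-0.58; 0.0256) lower. Of 10 proteases and inhibitors, 9 had a change above 0 and Adamts1, a secreted protease, rose by 1.48 (limma adjusted p = 0.0434, and 0.0553 with the block). With the block the 1 call of this list was cathepsin S (Ctss), a lysosomal and secreted protease (1.34; adjusted p = 0.0348 with the block and 0.0558 without it). Without saline replicate 1 or 3 or metformin replicate 1 or 2 none of the 10 was called, and without saline replicate 2 the count was 7.

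Markers of several cell types, and of dividing cells, moved in different directions. Of 9 endothelial genes 2 fell, Ehd3, known from glomerular endothelium (-1.66; limma adjusted p = 0.00676), and the receptor Tek (-0.45; 0.0367), and the list score, a mean deviation in log2 units, was -0.01 to 0.38 with saline and -0.40 to -0.16 with metformin. None of 5 podocyte genes passed the limma threshold (0 had an unadjusted p under 0.05), with scores of -0.06 to 0.11 and -0.07 to 0.08. Of 7 fibroblast and mesangial genes 1 rose (Col1a1, 1.65; 0.0404), with overlapping scores of -0.97 to 0.44 and 0.03 to 0.36. Of 9 macrophage genes 1 rose (Lyz2, 1.99; 0.0337), with scores of -1.02 to 0.36 and 0.08 to 0.60. Of 6 smooth muscle genes Smtn rose (0.59; 0.0176) and Myh11 fell (-0.87; 0.0448). All 5 genes of dividing cells rose, by 0.58 to 1.96, and their scores did not overlap (-0.93 to -0.18 with saline, 0.32 to 0.75 with metformin). Of 8 adipocyte genes 1 fell (Adipoq, -1.32; 0.0472), all 8 had a change below 0, and the scores were -0.25 to 1.04 and -0.57 to -0.43. Of 10 proximal tubule genes 1 fell (Slc5a12, -0.75; 0.0231), all 10 had a change below 0, and the scores were 0.12 to 0.56 and -0.65 to -0.03. Of 7 genes of the loop and distal tubule 2 fell (Kcnj1, -0.74, and Cldn10, -0.82), as did 3 of 8 of the collecting duct (Aqp3, -0.73, Avpr2, -0.64, and Slc4a1, -0.86) and the 1 measured erythroid gene (Alas2, -0.53), while none of 3 skeletal muscle genes passed the limma threshold (0 had an unadjusted p under 0.05). With a replicate block 7 of the 10 proximal tubule genes fell, as did 3 of the 8 adipocyte genes (Adipoq, Cidec and Retn) and 4 of the 8 collecting duct genes. The block also called 3 fibroblast and mesangial genes higher (Col1a1, Col1a2 and Col3a1) and 1 lower (Lum), 3 macrophage genes higher (Lyz2, C1qc and Mrc1), and Tagln beside Smtn higher in smooth muscle. In the loop and distal list Cldn10 lost its call with the block (adjusted p = 0.0542) and Pvalb (-0.55; 0.0473) gained one. Within saline, array 2 had the highest and array 3 the lowest score of the fibroblast, smooth muscle, adipocyte, macrophage and dividing cell lists, and so it was for Lama4, Lama5, Lamb2, Lamc1, Nid1 and Hspg2. The part of cell makeup in the changes of the laminin genes was not tested.

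**Figure D4:**
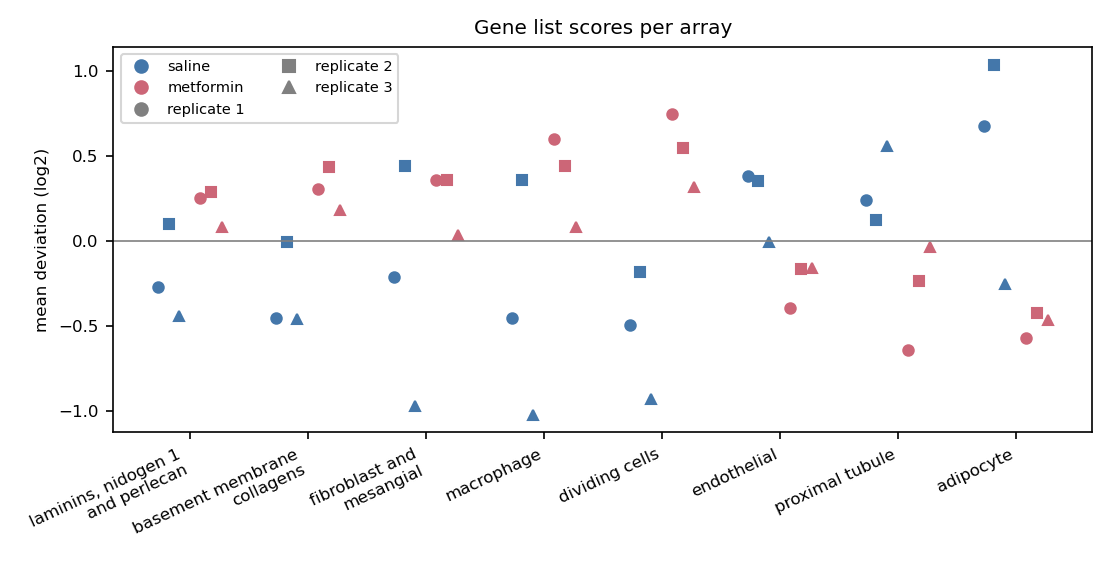
Mean deviation of the genes of a list from their own means over the 6 arrays (vertical axis, log2 units) for 8 lists (horizontal axis). Points are arrays, coloured by treatment, with circles, squares and triangles for replicates 1, 2 and 3. Saline replicate 2 is the highest saline array for the laminin, collagen, fibroblast, macrophage, dividing cell and adipocyte lists.

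The 5 named genes whose profile over the 6 arrays was most like that of Lamc1, by the root mean square difference of centred log2 values, were Adamts10, a secreted protease of microfibrils (0.0492), Pkd1 (0.0503), the integrin alpha chain of dendritic cells Itgax (0.0617), Lst1 (0.0630) and Arhgap11a (0.0636). Among the laminins, Lamb1 was the nearest to Lamc1 (0.0878), and Lama1 and Lama3 were the farthest of the 9 (0.440 and 0.514). Lama5 lay at 0.302, since its change was larger. Pkd1, the gene in the name of the mouse line, had 6.70, 7.16 and 6.67 with saline and 7.57, 7.58 and 7.34 with metformin, a rise of 0.65 ± 0.15 (SE; limma adjusted p = 0.0317). Where its probes lie relative to the transgene's target was not analysed here, so this is no check of the transgene.

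Array medians lay between 4.67 and 4.86 log2 units, and arrays correlated at 0.993 to 0.996 within groups and 0.984 to 0.993 between groups. All 25 listed markers of the kidney tubule and 5 of 8 podocyte markers were measured above the filter on low values. Of the 22087 genes 1482 rose and 2006 fell as deposited. The counts were 913 and 2713 with median-centring, and 993 and 3806 with quantile normalization. Over all genes the median change was 0.02 in the deposited values, -0.07 with median-centring and -0.10 with quantile normalization. Lama5, Lamb1 and Lamc1 stayed called and higher under both, with adjusted p of 0.0257, 0.04995 and 0.0417 after median-centring.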

How the data were processed

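Per the labels' protocols, RNA came from frozen kidneys by TRIzol extraction and was labelled by the GeneChip WT PLUS method. The authors deposited log2 expression values per transcript cluster, for which the submitters' processing notes name RMA and Transcriptome Analysis Console 4.0. Not given in the sources used here are the RMA variant, settings and genome build. The number of arrays limits the precision.

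The table holds 65956 clusters, of which 30604 carry 1 gene symbol in the platform annotation, updated by Entrez number through RefSeq (GRCm38.p6, 22818 matched), 2146 several and 33206 none. The lowest 33.3% by mean (under 4.03) were left out, and the cluster with the highest mean was kept per gene. Metformin was compared with saline over 22087 genes by limma 3.58.1 (lmFit, eBayes; R 4.3.3), two-sided and without covariates, with Benjamini-Hochberg adjustment over all genes. The fit was also run on simulated data with errors drawn independently for each gene and array. That run checks the code and does not bear on the calls reported here.

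The 9 genes, the 7 pathway lists and the 12 marker lists were chosen with earlier results of these data known. Named were all 9 genes, every called gene of a pathway list (at most 6) or else the 2 with the smallest p, Lama2, Lamb3, Lamc3 and Nid2, and the 5 non-predicted genes nearest to Lamc1. Col4a5, Col4a6, Itga7, Itgb4, Cd151, genes called only with the block and marker genes were named after their values were seen. Not analysed were listed genes without a cluster of their own symbol. Mmp9, Lep and Myh4 had such a cluster, but it lay below the filter on low values, so the main fit left them out.

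Deviations from the group means correlated at 0.118, 0.145 and 0.541 for replicate numbers 1, 2 and 3. The number was used as a block in an alternative, but saline 2 with metformin 1 reached 0.299, so what the numbers stand for is not settled. Other alternatives were leaving out each array, quantile normalization, median-centring, 2 other filters, averaging a gene's clusters, array weights, and eBayes with trend and robust options.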

Additional observations from a re-analysis of the deposited data

How the results depend on the processing

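Leaving out each array in turn gave 842 to 3961 called genes and 0 to 4 called among the 9, the fourth being Hspg2. Changes ran from 1.08 to 1.495 for Lama5, 0.57 to 0.76 for Lamb1, 0.60 to 0.88 for Lamc1, 0.32 to 0.98 for Hspg2, 0.11 to 0.45 for Lama4, 0.10 to 0.33 for Lamb2, -0.11 to -0.02 for Lama1, -0.02 to 0.46 for Nid1 (-0.01986 without saline replicate 3) and -0.21 to 0.01 for Lama3 (0.01394 without metformin replicate 1). The value of Hspg2 minus Lamc1 ran from -0.29 to 0.11 and was above 0 without saline replicate 2. Fits with fewer arrays have less power by construction. Even so, more genes were called without saline replicate 2 (3961) than with all 6 arrays (3488), so the counts depended on which array was left out. The same fits gave 0 to 1 calls in the lists of further laminin family genes, receptors and heparan sulphate synthesis, 0 to 5 for collagens, 0 to 6 for minor basement membrane proteins, 0 to 2 for dystroglycan glycosylation and 0 to 7 for proteases. The alternatives for these lists were chosen after seeing the data.

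In the other 8 alternatives the 3 calls of Lama5, Lamb1 and Lamc1 were kept and no other member was called. Averaging clusters and the 2 other filters could not change the values of the 9 genes, since each has 1 cluster and all passed. Those alternatives say little about these calls. With a replicate block the adjusted p of Lama5, Lamb1 and Lamc1 were 0.0166, 0.0210 and 0.0196. The block gave 1 call among further laminin family genes, 1 among receptors and 7 among minor basement membrane proteins, and moved the counts of the other 4 pathway lists by no more than 1.5 times. Among marker lists it moved the proximal tubule from 1 to 7 calls, fibroblasts from 1 to 4, and adipocytes and macrophages from 1 to 3. The paired permutation p of the 5 gene pairs was 0.25 or 1, with 0.25 the smallest possible. Median-centring gave 3 collagen and 2 receptor calls, and quantile normalization 3 receptor and 4 heparan sulphate calls. The mean of a gene's clusters and the trend and robust options moved no pathway list count by over 1.5 times. Without a filter there were 3 collagen calls and 0 each for minor proteins and proteases, and with the stricter filter 3 and 2. Array weights gave 1 call among further laminin family genes, 1 among receptors, 4 among minor proteins and 2 among proteases. The cause of these differences was not tested.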
